A study of Rattus norvegicus with 6 samples.

Results

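The genes described here are the rat metalloproteinases of the ADAM, ADAMTS, ADAMTSL and MMP families and their inhibitors, the TIMPs, in cultured heart muscle cells given all-trans retinoic acid (ATRA). They were chosen by name, as the rows of the deposited table whose symbol is Adam, Adamts, Adamtsl, Mmp or Timp followed by a digit. There were 75 such genes of 23096 in the table, and 46 of them had 10 or more normalised counts in 3 or more of the 6 libraries. The cells were ventricular cardiomyocytes freshly isolated from Wistar rat embryos at E18.5, pre-plated to remove fibroblasts and grown on laminin in medium with serum. The ATRA group received 10 µM ATRA, the active form of vitamin A that switches on nuclear retinoic acid receptors, for 48 h. The vehicle group received the solvent DMSO for 48 h. Each group had 3 poly(A) RNA libraries, and the libraries held 25434878 to 32052035 gene-assigned reads. The labels do not state whether replicate libraries stem from separate cell isolations, and p-values then cover the spread among these libraries alone, which may be technical.

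Metalloproteinases cut proteins outside the cell or at its surface with a zinc ion in the active site. MMPs cleave collagens and other matrix proteins, ADAMs are membrane proteins that release growth factors and receptors from the cell surface, and ADAMTS enzymes are secreted proteases that trim proteoglycans and procollagens. ADAMTSL proteins share the binding domains of ADAMTS enzymes but lack the protease domain, and TIMPs block the active sites of these enzymes. In the heart they take part in valve and septum formation, in growth factor release and in the turnover of the matrix between muscle cells.

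Cardiomyocyte markers dominated all libraries, with a summed FPKM (fragments per kilobase of gene and per library size, a level corrected for gene length) of 20916 to 21365 after ATRA and 17848 to 22268 in vehicle over 9 genes. Of these, 3 were higher, 2 lower and 4 not called. Markers of other cell types were detected as well. The 10 fibroblast markers summed to 774 to 819 FPKM after ATRA, but to 1803, 1383 and 809 FPKM in vehicle replicates 1, 2 and 3. The vehicle libraries thus spread widely, and vehicle replicate 3 had the lowest sum of the group and lay within the ATRA range. Among 9 fibroblast markers tested, 2 were higher after ATRA (Dcn and Fbln1), 2 were lower (Postn and Col1a1) and 5 were not called at an adjusted p under 0.05 with limma. Epicardial markers summed to 9.53 to 10.4 FPKM after ATRA and 14.9 to 29.5 FPKM in vehicle, and 4 of 5 were called lower. Markers of smooth muscle and pericytes summed to 16.1 to 17.3 FPKM after ATRA and 26.8 to 51.9 FPKM in vehicle, and 3 of 5 tested were lower and 1 higher. Endothelial markers summed to 6.81 to 7.4 FPKM after ATRA and 2.94 to 6.39 FPKM in vehicle, with 1 higher (Kdr) and 1 lower (Tek) of 6 tested. Immune markers summed to 2.55 to 3.55 FPKM after ATRA and 2.73 to 4.04 FPKM in vehicle, with 1 higher (Csf1r) and 1 lower (Cd14) of 3 tested. Over all 13110 genes tested, 20.3% were called higher and 18.9% lower. In such bulk samples fewer cells of a type and less RNA per cell cannot be told apart.

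ATRA changed these genes in both directions, with Adamts8 and Adamts15 rising most and Adam12 and Adamts5 falling most. Of the 46 genes tested with limma on log2(normalised count + 1), 8 were higher after ATRA, 19 were lower and 19 were not called at an adjusted p under 0.05 over all genes tested. That is 58.7% called, where 39.3% of all 13110 genes tested were called, 20.3% higher and 18.9% lower. Changes of at least 2-fold were called for 5 higher and 12 lower members, 37% of those tested, against 9.77% of all genes (3.39% higher and 6.38% lower). The groups did not overlap for 29 members, 63% of those tested, against 53.8% of all genes. The median log2 fold change was -0.25 over the members and 0.00 over all genes tested, and the median absolute value was 0.65 over the members and 0.23 over all genes. With scaling by library size alone, which moves the median of all genes to -0.10, the calls were 8 higher and 21 lower among members and 1764 higher and 3775 lower among all genes. The authors' deposited table calls 9 members higher and 18 lower, and 26 of the 27 limma calls are among them with the same sign. Mmp28 was called here alone and Adamts19 in the authors' deposited table alone, with adjusted p = 0.0981 and 0.0499 in that table. The values below are normalised counts, fold changes are ATRA over vehicle on the log2(value + 1) scale, given ± SE, and means are given ± SD, with n = 3 libraries per group.

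**Figure D1:**
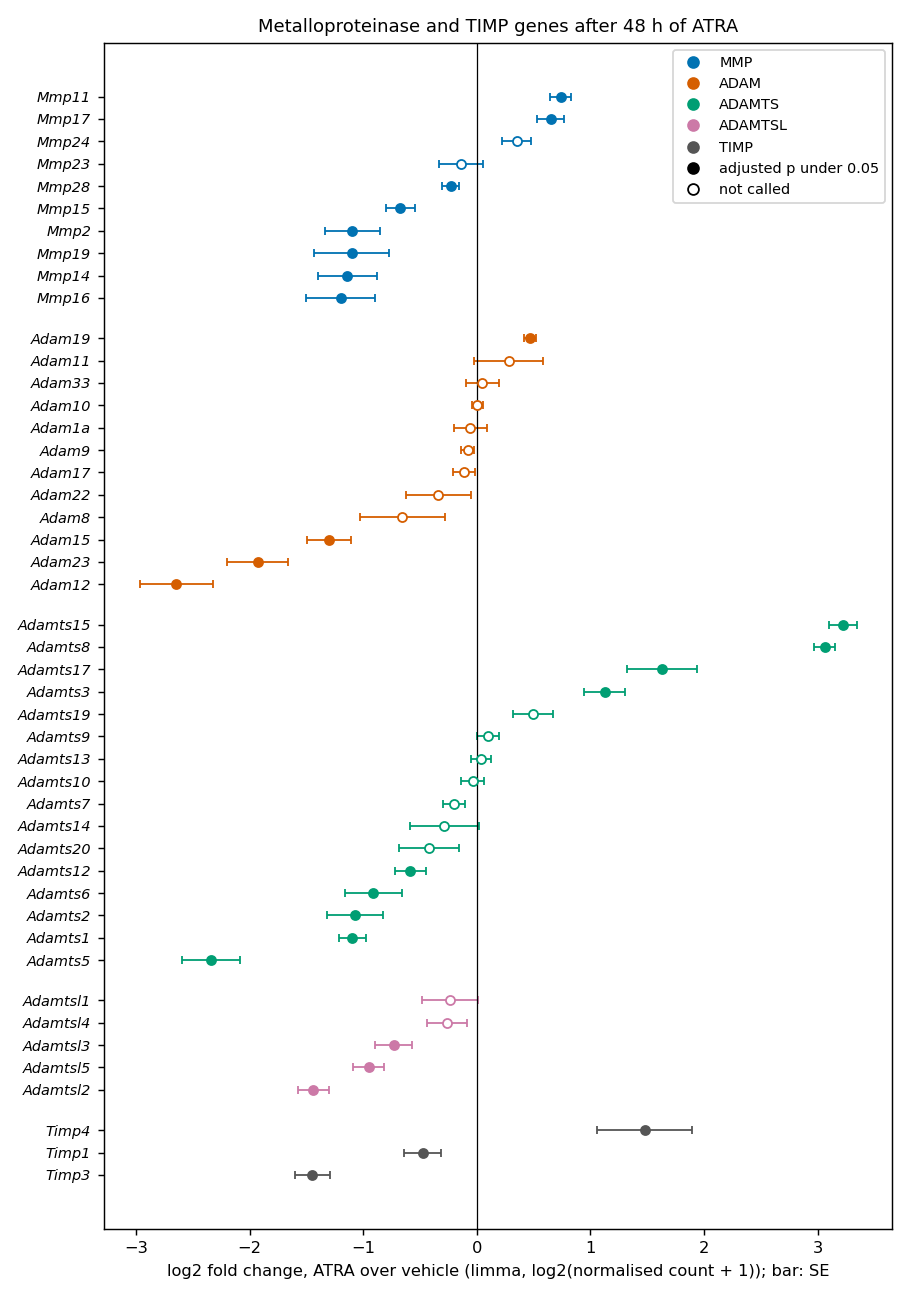
Log2 fold change (x axis, ATRA over vehicle, log2(normalised count + 1) scale) of the 46 tested genes, grouped by family. Bars are SE, and filled points passed the test at an adjusted p under 0.05. The changes ran between -2.64 for Adam12 and 3.22 for Adamts15, and the 5 genes called at least 2-fold higher were Adamts15, Adamts8, Adamts17, Timp4 and Adamts3.

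The ADAMTS family held both the largest rises and some of the largest falls. Of 16 tested ADAMTS genes, 4 were higher, 5 were lower and 7 were not called, 56.2% called against 39.3% of all genes tested. Their median log2 fold change was -0.12. Adamts8 (ENSRNOG00000005574), a secreted protease able to cleave the proteoglycan aggrecan, had a normalised count of 12607, 11723 and 12233 in ATRA replicates 1 to 3, against 1527, 1253 and 1619 in vehicle replicates 1 to 3. It was 8.35-fold higher (log2 fold change 3.06 ± 0.09, adjusted p = 7.33e-07), and each group kept to a narrow range. Adamts15 (ENSRNOG00000009892), a related enzyme that cleaves aggrecan and versican, had 982, 922 and 1075 in ATRA replicates 1 to 3, against 93.9, 123 and 101 in vehicle replicates 1 to 3. It was 9.32-fold higher (log2 fold change 3.22 ± 0.12, adjusted p = 2.24e-06), and every ATRA library lay far above every vehicle library. On the scale corrected for gene length Adamts8 had 125 ± 4.56 FPKM after ATRA and 15.1 ± 1.96 FPKM in vehicle (SD, n = 3). It ranked 1 of the 46 members after ATRA and 9 in vehicle, while Adamts15 had 5.62 ± 0.437 FPKM after ATRA and 0.601 ± 0.0867 FPKM in vehicle and ranked 17 after ATRA and 37 in vehicle. Adamts8 alone made up 73.3% to 74.6% of the summed ADAMTS FPKM after ATRA and 19% to 25.8% in vehicle.

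The remaining rises of the family concerned less abundant genes. Adamts17 (ENSRNOG00000037080), a protease linked to fibrillin microfibrils, had 216, 202 and 288 in ATRA replicates 1 to 3, against 44.5, 107 and 87.0 in vehicle replicates 1 to 3 (log2 fold change 1.63 ± 0.31, adjusted p = 0.00475). Adamts3 (ENSRNOG00000027463), a procollagen N-proteinase that also activates the lymphatic growth factor VEGF-C, had 141, 128 and 119 in ATRA replicates 1 to 3, against 58.1, 48.6 and 71.8 in vehicle replicates 1 to 3 (log2 fold change 1.12 ± 0.18, adjusted p = 0.00209). The groups did not overlap for either gene, although the vehicle values of Adamts17 spread more widely than its ATRA values in relative terms.

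Other proteoglycan-cleaving members fell. Adamts5 (ENSRNOG00000057794), the main aggrecanase of cartilage and a versican-cleaving enzyme in developing valves, had 99.0, 107 and 119 in ATRA replicates 1 to 3, against 802, 568 and 368 in vehicle replicates 1 to 3. It was 5.06-fold lower (log2 fold change -2.34 ± 0.25, adjusted p = 0.000369). The groups did not overlap, and the vehicle values spread more widely, with vehicle replicate 3 the lowest. Adamts1 (ENSRNOG00000001607), which cleaves versican and is needed for trabeculation of the mouse heart, had 777, 764 and 759 in ATRA replicates 1 to 3, against 1818, 1826 and 1330.0 in vehicle replicates 1 to 3. It was 2.14-fold lower (log2 fold change -1.10 ± 0.12, adjusted p = 0.000376). All 3 ATRA libraries agreed closely and lay well below the lowest vehicle library. Adamts4, the other well-known aggrecanase, was barely detected, at 1.96, 3.03 and 4.34 in ATRA replicates 1 to 3, against 10.6, 10.4 and 1.09 in vehicle replicates 1 to 3, and was not tested. Adamts9, which cleaves versican as well, averaged 1912 ± 105 after ATRA and 1794 ± 255 in vehicle (SD, n = 3; log2 fold change 0.10 ± 0.10, adjusted p = 0.455) and was not called. It was called higher without vehicle replicate 3 (log2 fold change 0.21, adjusted p = 0.0159), and its log2 fold change was -0.009 with library size alone.

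Adamts2 (ENSRNOG00000061484), the main procollagen N-proteinase of skin and other connective tissue, had 356, 313 and 377 in ATRA replicates 1 to 3, against 1038, 791 and 478 in vehicle replicates 1 to 3 (log2 fold change -1.07 ± 0.25, adjusted p = 0.0109). It was lower and its relative Adamts3 higher, and neither gene's groups overlapped. Adamts14, the other procollagen N-proteinase, was not called (log2 fold change -0.29 ± 0.30, adjusted p = 0.485). Adamts12, which cleaves the cartilage matrix protein COMP, was lower by a smaller amount, averaging 589.9 ± 18.7 after ATRA and 898 ± 190.2 in vehicle (log2 fold change -0.59 ± 0.14, adjusted p = 0.0111), with its highest value in vehicle replicate 3. Adamts6, which is needed for heart development in the mouse, averaged 102 ± 13.4 after ATRA and 200.4 ± 71.3 in vehicle (log2 fold change -0.91 ± 0.25, adjusted p = 0.0224), and this call was lost without vehicle replicate 2 (adjusted p = 0.0666) and without ATRA replicate 1, 2 or 3 (0.051, 0.0851 and 0.0675). Also not called were Adamts10, which is linked to fibrillin, Adamts13, which cleaves von Willebrand factor, Adamts7, which cleaves COMP, Adamts19, which is linked to heart valves, and Adamts20, a relative of Adamts9, with log2 fold changes between -0.42 and 0.49. Without vehicle replicate 3, calls were made for Adamts19 (log2 fold change 0.61, adjusted p = 0.0163), Adamts20 (log2 fold change -0.72, adjusted p = 0.00628) and Adamts7 (log2 fold change -0.29, adjusted p = 0.0163).

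**Figure D2:**
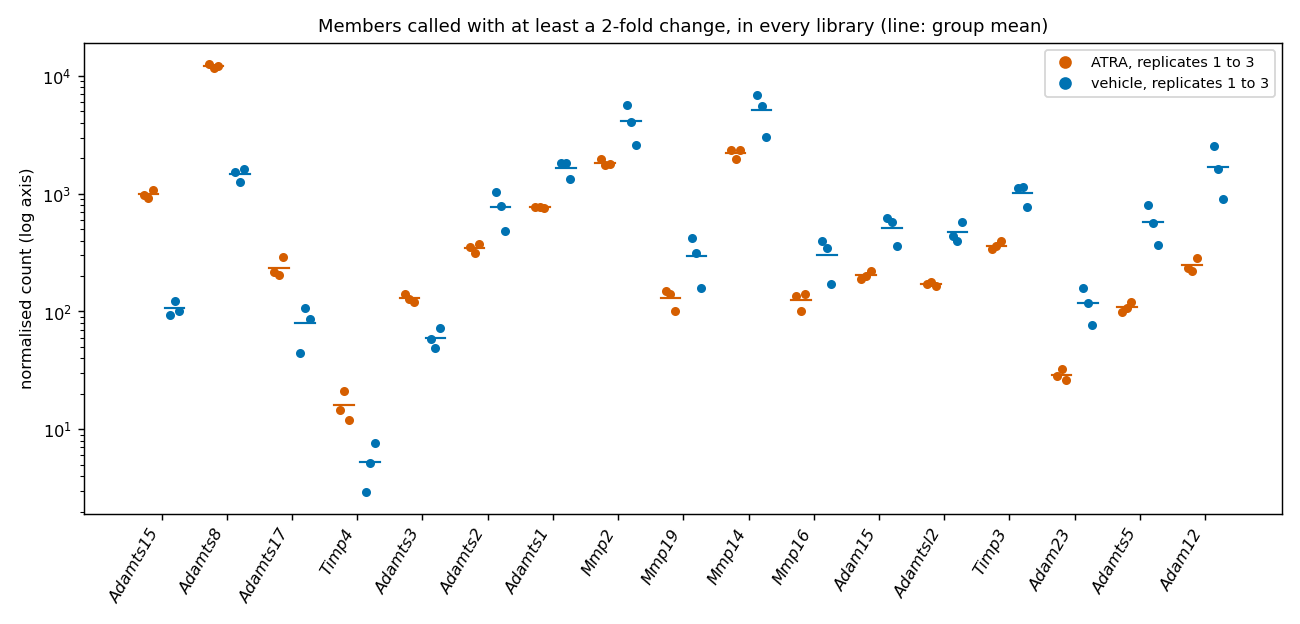
Normalised count (log axis) in each library of the 17 members called with at least a 2-fold change, ordered by fold change, with ATRA to the left of vehicle for each gene and a line at each group mean. Adamts8 sits between 11723 and 12607 after ATRA and between 1253 and 1619 in vehicle, and the vehicle points of the falling genes are spread more widely than their ATRA points.

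Some members with like responses are neighbours in the genome. In the order of RefSeq protein-coding genes on the assembly GRCr8, used only for names and gene order, 2 pairs of the 46 members were directly adjacent. These were Adamts15 with Adamts8, which rose, and Adamts1 with Adamts5, which fell. Next to Adamts15 lay Snx19, a sorting nexin, which was higher (log2 fold change 0.82 ± 0.05, adjusted p = 3.24e-05), and next to Adamts8 lay Zbtb44, a zinc finger gene, which was not called (log2 fold change 0.07 ± 0.14, adjusted p = 0.731). Beyond Zbtb44 lay St14, which was not called (log2 fold change -0.57 ± 0.22, adjusted p = 0.0701), and Ntm beyond Snx19 was not among the genes tested. Next to Adamts1 lay Cyyr1, which was not among the genes tested, and next to Adamts5 lay N6amt1, which was not called (log2 fold change 0.19 ± 0.10, adjusted p = 0.189). The amyloid precursor gene App, beyond Cyyr1, was higher (log2 fold change 0.37 ± 0.06, adjusted p = 0.00219), and Ltn1, beyond N6amt1, was not called (log2 fold change -0.05 ± 0.05, adjusted p = 0.465).

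Among the ADAMs, Adam12, Adam23 and Adam15 fell, Adam19 rose, and the widely acting sheddases Adam10 and Adam17 were not called. Of 12 tested ADAM genes 1 was higher, 3 were lower and 8 were not called, 33.3% called against 39.3% of all genes tested. Their median log2 fold change was -0.10. Adam12 (ENSRNOG00000018384), a sheddase of heparin-binding EGF-like growth factor that is found in mesenchymal cells, had 235, 222 and 282 in ATRA replicates 1 to 3, against 2538, 1607 and 893 in vehicle replicates 1 to 3. It was 6.25-fold lower (log2 fold change -2.64 ± 0.32, adjusted p = 0.000645), the largest fall of any member. Vehicle replicate 1 was highest and vehicle replicate 3 lowest, yet even the lowest was above all ATRA libraries. Adam23 (ENSRNOG00000012424), a catalytically inactive neuronal ADAM, had 28.4, 32.4 and 26.0 in ATRA replicates 1 to 3, against 159.7, 117 and 76.1 in vehicle replicates 1 to 3 (log2 fold change -1.93 ± 0.27, adjusted p = 0.00123). Adam15 (ENSRNOG00000020590), an ADAM with a disintegrin domain that binds integrins, had 188, 200.2 and 222 in ATRA replicates 1 to 3, against 618, 572 and 358 in vehicle replicates 1 to 3 (log2 fold change -1.30 ± 0.20, adjusted p = 0.00173). Neither gene's groups overlapped.

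Adam19 (ENSRNOG00000042980), which can shed neuregulin and is needed for septum and valve formation in the mouse, was the most abundant ADAM. It had 16424, 16716 and 17660.0 in ATRA replicates 1 to 3, against 11894, 12512 and 12377 in vehicle replicates 1 to 3. The rise was small but larger than the spread within either group, 1.38-fold (log2 fold change 0.47 ± 0.05, adjusted p = 0.000489). Per gene length it had 92.4 ± 3.52 FPKM after ATRA and 66.9 ± 1.77 FPKM in vehicle (SD, n = 3). This was 60% to 61.6% of the summed ADAM FPKM after ATRA and 45.5% to 51.4% in vehicle.

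Adam10 (ENSRNOG00000054257), the sheddase of Notch receptors, had 3248, 3504 and 3497 in ATRA replicates 1 to 3, against 3494, 3358 and 3359 in vehicle replicates 1 to 3 (log2 fold change 0.00 ± 0.05, adjusted p = 0.95). The groups overlapped, and the sign of the log2 fold change turned with library size alone (-0.10). Adam17 (ENSRNOG00000060694), which releases tumour necrosis factor and several EGF family ligands, had 1311, 1352 and 1291 in ATRA replicates 1 to 3, against 1649, 1421 and 1234 in vehicle replicates 1 to 3 (log2 fold change -0.11 ± 0.10, adjusted p = 0.399). These groups overlapped as well, but without vehicle replicate 3 Adam17 was called lower (log2 fold change -0.22, adjusted p = 0.0305). Adam9, another sheddase, averaged 1598 ± 46.5 after ATRA and 1691 ± 92.9 in vehicle (log2 fold change -0.08 ± 0.06, adjusted p = 0.313) and was called lower with library size alone (log2 fold change -0.19, adjusted p = 0.0292). Adam33 (0.05 ± 0.14), Adam1a (-0.06 ± 0.15), the leukocyte gene Adam8 (-0.66 ± 0.38) and the inactive neuronal members Adam11 (0.28 ± 0.30) and Adam22 (-0.34 ± 0.29) were not called. Adam8, Adam11 and Adam22 had normalised counts of at most 32.9 in any library, so small changes in them were not detectable at this depth.

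Most expressed MMPs fell, among them the most abundant. Of 10 tested MMP genes, 2 were higher, 6 were lower and 2 were not called, 80% called against 39.3% of all genes tested. Their median log2 fold change was -0.45. This count of lower genes came to 3 on leaving out either vehicle replicate 2 or ATRA replicate 2. Mmp14 (ENSRNOG00000010947), the membrane-bound collagenase MT1-MMP that also activates the MMP2 proenzyme, had 2361, 1974 and 2346 in ATRA replicates 1 to 3, against 6931, 5546 and 3047 in vehicle replicates 1 to 3. It was 2.2-fold lower (log2 fold change -1.14 ± 0.26, adjusted p = 0.0107). Mmp2 (ENSRNOG00000016695), or gelatinase A, had 1966, 1736 and 1789.7 in ATRA replicates 1 to 3, against 5667, 4087 and 2582 in vehicle replicates 1 to 3. It was 2.14-fold lower (log2 fold change -1.10 ± 0.24, adjusted p = 0.00882). For both genes vehicle replicate 1 was the highest and vehicle replicate 3 the lowest of its group, and the ATRA libraries lay together below all of them. Without vehicle replicate 3 the falls were larger, with log2 fold changes of -1.48 for Mmp14 and -1.40 for Mmp2.

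Mmp16 (ENSRNOG00000005708), another transmembrane MMP, had 134, 101 and 139.8 in ATRA replicates 1 to 3, against 399.7, 343 and 169.6 in vehicle replicates 1 to 3 (log2 fold change -1.20 ± 0.30, adjusted p = 0.016). Its call was lost without vehicle replicate 2 (log2 fold change -1.07, adjusted p = 0.0622) and without ATRA replicate 2 (log2 fold change -1.05, adjusted p = 0.0665). Mmp19 (ENSRNOG00000006778), a secreted MMP of basement membranes, had 148, 141 and 101 in ATRA replicates 1 to 3, against 417, 316 and 159 in vehicle replicates 1 to 3 (log2 fold change -1.10 ± 0.33, adjusted p = 0.0311). The Mmp19 call was lost without vehicle replicate 1 or 2 (adjusted p = 0.0644 and 0.0999) and without ATRA replicate 1, 2 or 3 (0.0654, 0.0735 and 0.114). In both genes vehicle replicate 3 lay just above the highest ATRA library, and the other vehicle libraries lay well above it.

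Mmp15, a membrane-type MMP, averaged 2174 ± 156 after ATRA and 3506 ± 640.0 in vehicle (log2 fold change -0.67 ± 0.13, adjusted p = 0.00493), and vehicle replicate 3 had its highest value. Mmp28, or epilysin, averaged 392 ± 18.1 after ATRA and 459 ± 8.12 in vehicle (log2 fold change -0.23 ± 0.07, adjusted p = 0.0427). The Mmp28 call was lost without vehicle replicate 1 or 2 (adjusted p = 0.0537 and 0.108) and without ATRA replicate 1, 2 or 3 (0.0942, 0.0938 and 0.163). It was also lost with DESeq2 (0.072), with no filter (0.0577) and with the replicate number as a block (0.101).

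The higher members were Mmp11, stromelysin 3, which furin activates inside the cell, and Mmp17, an MMP tethered to the membrane by a lipid anchor. Mmp11 averaged 1069 ± 8.85 after ATRA and 644 ± 82.4 in vehicle (SD, n = 3; log2 fold change 0.74 ± 0.09, adjusted p = 0.000732), and Mmp17 averaged 683 ± 57.7 after ATRA and 437 ± 61.3 in vehicle (log2 fold change 0.65 ± 0.12, adjusted p = 0.00374). Both were higher in every ATRA library than in any vehicle library. Mmp24, a membrane-type MMP, was not called (log2 fold change 0.35 ± 0.13, adjusted p = 0.0587) but was without vehicle replicate 1 (log2 fold change 0.46, adjusted p = 0.0131). Mmp23 was not called either (log2 fold change -0.14 ± 0.19, adjusted p = 0.597) but was lower without vehicle replicate 3 (log2 fold change -0.39, adjusted p = 0.00321), and its value was 0.02 without vehicle replicate 1.

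Several MMP genes had few or no reads. Mmp9, the gelatinase of neutrophils and macrophages, had 0.98, 2.02 and 0 in ATRA replicates 1 to 3, against 0, 0 and 0 in vehicle replicates 1 to 3, which is 3 reads over the ATRA libraries and 0 over the vehicle libraries. In a library without a read the count of 0 allows a normalised count of up to 2.60 to 3.26, which covers counting error only. Mmp3, or stromelysin 1, had 1.96, 1.01 and 0 in ATRA replicates 1 to 3, against 13.5, 6.08 and 4.35 in vehicle replicates 1 to 3, and Mmp25 reached at most 20.3 in any library. Of the 29 members that missed the filter 14 had no read in any library, among them the collagenase Mmp13, the matrilysin Mmp7 and 9 ADAM genes. The untested ADAM genes reached at most 4.34.

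All 5 ADAMTSL genes passed the filter, 3 were lower and 2 not called, 60% called against 39.3% of all genes tested. Adamtsl2 (ENSRNOG00000027742), a fibrillin-binding protein mutated in human geleophysic dysplasia, had 171, 177 and 166 in ATRA replicates 1 to 3, against 441, 400.2 and 575 in vehicle replicates 1 to 3. It was 2.71-fold lower (log2 fold change -1.44 ± 0.14, adjusted p = 0.000213). The most abundant, Adamtsl5, another binder of fibrillin, had 18.4 ± 0.586 FPKM after ATRA and 36.1 ± 7.59 FPKM in vehicle (SD, n = 3; log2 fold change -0.95 ± 0.13, adjusted p = 0.0012). Adamtsl3 averaged 591 ± 99.8 after ATRA and 984 ± 185 in vehicle (log2 fold change -0.73 ± 0.16, adjusted p = 0.00928). Each of these 3 genes had its highest value in vehicle replicate 3, whereas Mmp2, Mmp14 and Adam12 had their lowest vehicle value there. Adamtsl1 (-0.24 ± 0.24) and Adamtsl4 (-0.26 ± 0.18) were not called.

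Of the 3 TIMP genes tested, 1 was higher and 2 were lower, where 39.3% of all genes tested were called. Timp3 (ENSRNOG00000004303), a TIMP bound to the matrix that inhibits ADAM17 and aggrecanases as well as MMPs, had 336, 359.9 and 394 in ATRA replicates 1 to 3, against 1117, 1136 and 767 in vehicle replicates 1 to 3. It was 2.73-fold lower (log2 fold change -1.45 ± 0.15, adjusted p = 0.000332), with no overlap. Timp1 (ENSRNOG00000010208), a soluble inhibitor and the most abundant of the 3, had 1105, 999.9 and 1048 in ATRA replicates 1 to 3, against 1896, 1453 and 1135 in vehicle replicates 1 to 3 (log2 fold change -0.48 ± 0.16, adjusted p = 0.048). Vehicle replicate 3 lay just above the ATRA libraries, and the groups did not overlap. The Timp1 call was lost without vehicle replicate 1 or 2 (adjusted p = 0.0619 and 0.111) and without ATRA replicate 1, 2 or 3 (0.1, 0.142 and 0.124). Timp4 (ENSRNOG00000007955), the inhibitor found mainly in heart, had 14.7, 21.2 and 11.9 in ATRA replicates 1 to 3, against 2.9, 5.21 and 7.61 in vehicle replicates 1 to 3 (log2 fold change 1.48 ± 0.42, adjusted p = 0.0243). It rests on 47 reads over the ATRA libraries and 16 over the vehicle libraries. It passed the filter only through the ATRA libraries, and with the vehicle level in both groups it would not have been tested. The Timp4 call was lost without vehicle replicate 1 or 2 (adjusted p = 0.0557 and 0.0583), and without an ATRA library it no longer passed the filter. Timp2 was not analysed here.

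Summed per family and corrected for gene length, the ADAMTS level was higher after ATRA owing to Adamts8, and the MMP level was lower. The summed FPKM of ADAMTS genes was 174, 164 and 172 in ATRA replicates 1 to 3, against 75.7, 67.8 and 64.6 in vehicle replicates 1 to 3. That of MMP genes was 113, 103 and 111 in ATRA replicates 1 to 3, against 216, 187 and 136 in vehicle replicates 1 to 3. The ADAMTS sum of every ATRA library was above that of every vehicle library, and for MMP genes every ATRA library was below. With Adamts8 left out the ADAMTS sum was 44.6 ± 1.16 FPKM after ATRA and 54.3 ± 6.07 FPKM in vehicle, so the direction turned. ADAMTSL genes summed to 24.1 ± 1.08 FPKM after ATRA and 46.8 ± 8.84 FPKM in vehicle (SD, n = 3), and TIMP genes to 48.6 ± 1.84 FPKM after ATRA and 78.6 ± 18.4 FPKM in vehicle. ADAM genes summed to 152 ± 4.44 FPKM after ATRA and 138 ± 5.93 FPKM in vehicle, and with Adam19 left out to 59.6 ± 1.53 FPKM after ATRA and 71.4 ± 6.89 FPKM in vehicle. The ratio of summed MMP to summed TIMP FPKM was 2.25, 2.20 and 2.26 in ATRA replicates 1 to 3, against 2.24, 2.35 and 2.27 in vehicle replicates 1 to 3, and the groups overlapped. These sums are descriptions without a test, and they leave out Timp2.

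**Figure D3:**
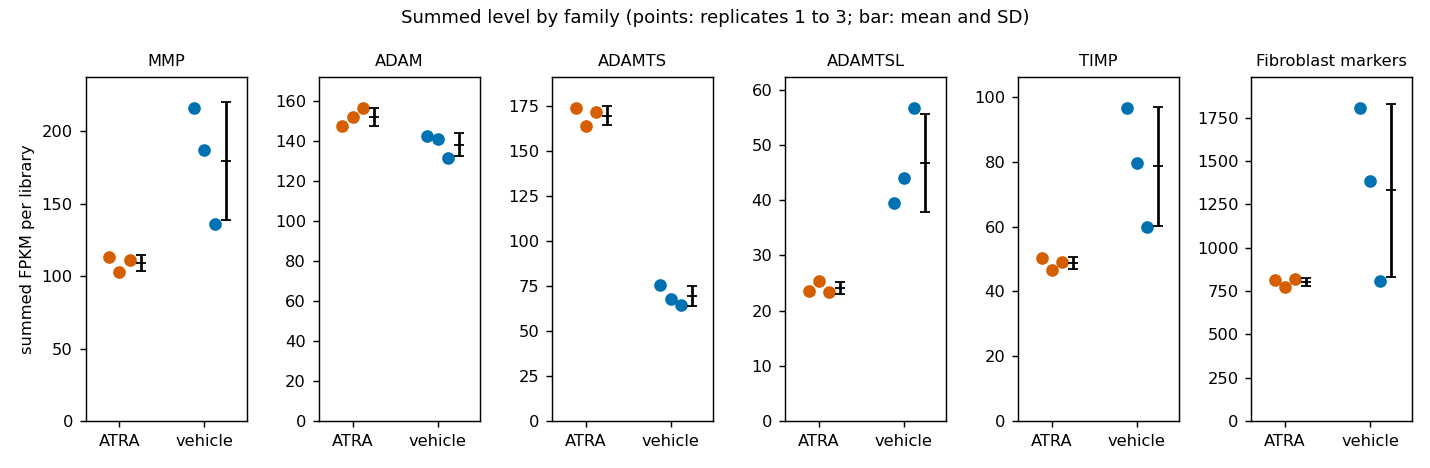
Summed FPKM per library (y axis, from 0) of each family and of the 10 fibroblast markers, with ATRA to the left of vehicle. Points are replicates 1 to 3 and black bars the mean and SD. The ADAMTS sum was higher by more than 2-fold after ATRA (170 against 69.4 FPKM), most of it Adamts8. Vehicle replicate 3 is the lowest vehicle point in every panel but that of the ADAMTSL genes, where it is the highest.

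Vehicle replicate 3 was the lowest vehicle library for many falling genes. Of the 19 members called lower, 13 had a lower level in vehicle replicate 3 than the average of the other vehicle libraries, and the median of this difference over the 19 was -0.73 on the log2 scale. The same held for 1806 of all 2483 genes called lower, so the share of members with a low value there is close to that of falling genes in general. The median difference over those 2483 genes was -0.16, a smaller shift than the -0.73 of the members. Of the 9 tested fibroblast markers 8 were lower there as well, with values of -0.95 for Col1a1, -1.20 for Postn and -1.49 for Tcf21. In vehicle replicate 3, with a fibroblast sum of 809 FPKM, 6 of 9 tested fibroblast markers lay below all ATRA libraries and 2 above all of them. Epicardial markers lay above all ATRA libraries there for 4 of 5 genes. The part of fibroblasts, epicardial or mural cells in the falls was not tested. Without vehicle replicate 3 the members called were 10 higher and 23 lower.

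**Figure D4:**
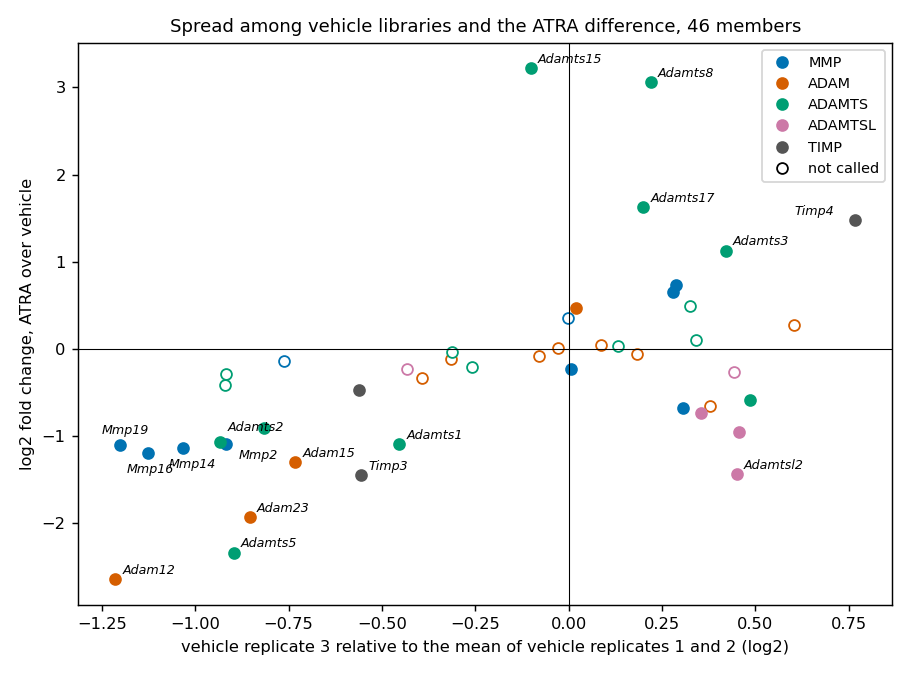
Log2 fold change of ATRA over vehicle (y axis) against the level in vehicle replicate 3 less the average of the other vehicle libraries (x axis, log2) for the 46 tested genes, coloured by family. Both axes use the same vehicle values, so the points are a description only. Adam12, Adamts5, Mmp2 and Mmp14 lie at the lower left, while Adamts8, Adamts15 and the falling ADAMTSL genes lie close to 0 or to the right of it on the x axis.

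Upstream sequences were searched for letters bound by factors that respond to growth signals or retinoids. The windows were the 250 bases before the annotated start, from RefSeq on GRCr8, and 33 of the 46 members had an entry. AP-1, a dimer of FOS and JUN proteins, binds TGANTCA, which reads the same on both strands. Retinoic acid receptors bind repeated short sites such as AGGTCA and GGGTCA, which were searched on both strands. Single sites were counted, and a repeat of the site was not looked for, so a match is not a receptor site by itself. TGANTCA was present in 1 of 33 members (3.03%) and in 6.36% of all 27457 windows. AGGTCA was present in 5 of 33 members (15.2%) against 13.7% of all windows, and GGGTCA in 7 of 33 (21.2%) against 11.8%. None of the 13 members called lower that had an entry held TGANTCA, 2 held AGGTCA and 4 held GGGTCA. Of the 5 members called higher that had an entry, 1 held TGANTCA, 0 held AGGTCA and 1 held GGGTCA. The risers Adamts8, Adamts15 and Mmp17 had no entry and were not searched. Nor were the fallers Adamts5, Adam23, Mmp2, Mmp14, Mmp16 and Mmp19. The upstream window of Adam12, the member with the largest fall, is shown first and holds none of these letters. The windows of the risers Adamts17 and Timp4 hold none either and are not shown. They had the next largest changes among called members with an entry. The windows of Adam19, which alone holds TGANTCA, and of Adamts3, a riser with a GGGTCA match on the minus strand, are shown for their matches. These 2 were chosen after the search. Capitals mark the matched letters, at -169 to -163 in Adam19 and at -217 to -212 in Adamts3, counted from the start.
Adam12, chr1:198443681-198443930, minus strand: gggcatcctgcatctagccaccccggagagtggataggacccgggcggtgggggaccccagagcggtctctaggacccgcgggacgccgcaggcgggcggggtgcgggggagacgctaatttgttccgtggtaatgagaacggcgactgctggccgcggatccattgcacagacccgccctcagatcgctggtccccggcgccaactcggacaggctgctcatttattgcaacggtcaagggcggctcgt
Adam19, chr10:30992511-30992760, plus strand: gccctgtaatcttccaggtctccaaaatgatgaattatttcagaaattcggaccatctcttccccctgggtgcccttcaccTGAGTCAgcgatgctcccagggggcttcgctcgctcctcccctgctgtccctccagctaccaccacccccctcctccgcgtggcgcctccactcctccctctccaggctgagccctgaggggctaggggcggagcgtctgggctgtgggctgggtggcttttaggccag
Adamts3, chr14:18514999-18515248, plus strand: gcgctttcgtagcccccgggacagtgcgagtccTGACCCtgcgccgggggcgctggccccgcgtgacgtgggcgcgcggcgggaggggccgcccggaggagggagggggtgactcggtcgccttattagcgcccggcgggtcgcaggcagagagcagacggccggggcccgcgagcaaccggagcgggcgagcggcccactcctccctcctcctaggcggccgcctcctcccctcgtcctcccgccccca

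Genes known to control or to be cut by these proteases were described by lists. Of 13 tested transcription factors known to bind MMP or TIMP promoters, 10 were lower and 1 higher, with a median log2 fold change of -1.01. That is 84.6% called, against 39.3% of all genes tested (20.3% higher and 18.9% lower). The smallest adjusted p-values were those of the AP-1 genes Fosb (log2 fold change -4.84 ± 0.23, adjusted p = 7.05e-06), Fos (log2 fold change -3.48 ± 0.20, adjusted p = 1.54e-05) and Fosl2 (log2 fold change -1.15 ± 0.09, adjusted p = 7.55e-05). The higher one was Etv4, an ETS factor (log2 fold change 0.56 ± 0.13, adjusted p = 0.0106), and without ATRA replicate 1 the list had 0 higher genes. Of 17 tested regulators of metalloproteinases, 3 were higher and 7 lower, 58.8% called. Pcsk6, a proprotein convertase of the furin type, was higher (log2 fold change 1.14 ± 0.04, adjusted p = 2.66e-06), as was Bsg, or basigin, which induces MMPs in neighbouring cells (log2 fold change 0.79 ± 0.08, adjusted p = 0.000331). Rhbdf1, an iRhom that carries ADAM17 to the cell surface, was lower (log2 fold change -0.53 ± 0.05, adjusted p = 0.000239). The other iRhom of the list, Rhbdf2, named after its value was seen, was also lower (log2 fold change -0.51 ± 0.16, adjusted p = 0.039). The tetraspanin genes Tspan5 (log2 fold change -1.92 ± 0.26, adjusted p = 0.000963) and Tspan17 (log2 fold change -1.28 ± 0.17, adjusted p = 0.00085), partners of ADAM10 chosen here after their values were seen, were lower too. The other tetraspanins of the list, Tspan14 (0.13 ± 0.07), Tspan15 (-0.10 ± 0.10) and Tspan33 (-0.62 ± 0.24), were not called, and Tspan10 was too low to be tested. The list of regulators had a median of -0.26.

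Of 18 tested genes whose products ADAMs shed, 4 were higher and 11 lower, with a median of -0.81. That is 83.3% called, against 39.3% of all genes tested. Of the matrix substrates below 76.5% were called, and of the other zinc metalloproteinases 60%. Hbegf, heparin-binding EGF-like growth factor, was lower (log2 fold change -2.04 ± 0.09, adjusted p = 5.17e-06), as was the related ligand Ereg (log2 fold change -4.05 ± 0.36, adjusted p = 0.000142), while the ligand Tgfa was higher (log2 fold change 1.61 ± 0.13, adjusted p = 0.00011). Ereg passed the filter through the vehicle libraries, with 7.08 to 10.8 normalised counts after ATRA and 97.9 to 258 in vehicle. Its ATRA libraries alone would not have passed. Of 17 tested matrix substrates of ADAMTS and MMP enzymes, 3 were higher and 10 lower, with a median of -0.75. Thbs1, thrombospondin 1 (log2 fold change -2.58 ± 0.16, adjusted p = 2.61e-05), Acan, aggrecan (log2 fold change -4.17 ± 0.44, adjusted p = 0.000343), and Fbn1, fibrillin 1 (log2 fold change -1.89 ± 0.24, adjusted p = 0.000778), had the smallest adjusted p-values. Acan had 8.09 to 21.6 normalised counts after ATRA and 158 to 393 in vehicle, and its ATRA libraries alone would not have passed the filter. Vcan, the versican that is the main proteoglycan substrate in developing heart, named after its value was seen, was lower (log2 fold change -1.48 ± 0.21, adjusted p = 0.00141). The higher matrix genes were Col4a1, Col4a2 and Dcn, and this count was 1 without ATRA replicate 1 or without ATRA replicate 3. This list shares Col1a1, Col1a2, Col3a1 and Dcn with the fibroblast markers, and 16 of its 17 tested genes had a lower level in vehicle replicate 3 than the average of the other vehicle libraries. Of 5 tested zinc metalloproteinases outside these families, 3 were lower, namely Bmp1, a procollagen C-proteinase (log2 fold change -0.30 ± 0.06, adjusted p = 0.00457), and the endothelin-converting enzymes Ece1 (log2 fold change -0.79 ± 0.19, adjusted p = 0.0141) and Ece2 (log2 fold change -2.08 ± 0.47, adjusted p = 0.0104). Ece2 also passed the filter through the vehicle libraries, with 5.06 to 10.8 normalised counts after ATRA and 18.49 to 55.17 in vehicle.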

How the data were processed

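Per the labels' protocols, total RNA was depleted of DNA, poly(A) selected and made into libraries with a NEBNext Ultra II kit. The build was mRatBN7.2, and STAR 2.7.3a, HTSeq 0.11.2, Trim Galore 0.6.4 and DESeq2 1.32.0 were used, per the submitters' processing notes. How strand and shared reads were treated is not given in the sources used here, so genes that overlap others have uncertain values.

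Deposited values were a normalised count signal (reads divided by a library size factor, as the values show) and the authors' FPKM, per the file headers. The authors' log2 fold change, test score, p-value and adjusted p-value were deposited beside them, per the file headers. In each library 100% of values were whole multiples of a step within 1e-06, which gave back the reads. The step of ATRA replicate 2 was 1.01, so its reads are close in value to its normalised counts. They were recovered in the same way as those of the other libraries.

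limma 3.58.1 with a trended variance was run on log2(normalised count + 1) for genes with at least 10 in at least 3 libraries, adjusted by Benjamini-Hochberg. edgeR 4.0.16 and DESeq2 1.42.0 on the recovered reads, other scalings, filters, a pseudocount of 5, a replicate block and leaving out each library were alternatives. On the recovered reads edgeR called 2550 genes higher and 2592 lower. The test was run on simulated counts with the same dispersion in both groups, with an outcome not reported here. That setting does not cover the wider spread among the vehicle libraries. Pairs of libraries within ATRA had a chi-square of 2.61 to 3.45 per degree of freedom and pairs within vehicle 23.3 to 49.2, so none was a duplicate. Members and lists were chosen with earlier results of these data known. The lists were transcription factors of MMP and TIMP promoters, regulators, shed and matrix substrates, other zinc metalloproteinases, and markers of cardiomyocytes, epicardium, immune cells, fibroblasts, smooth muscle with pericytes, and endothelium. Values per library are given for members called with at least a 2-fold change, the TIMPs and 8 well-known members, and 3 genes per list are named by adjusted p. Adam19 and Mmp3 were given per library after their values were seen. Pln, Junb and Pappa were not analysed here. No protein sequence was used here.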

Additional observations from a re-analysis of the deposited data

How the results depend on the processing

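Of the 27 called members, 21 kept their call in every alternative (14 lower and 7 higher), and the 6 that did not are Adamts6, Mmp16, Mmp19, Mmp28, Timp1 and Timp4. Of 636 alternative values of single genes, 582 kept direction and call, 26 lost the call, 10 gained one and 18 changed sign. Members called were 7 to 10 higher and 14 to 23 lower over the fits that leave out 1 library. With library size alone, all genes gave 1764 higher and 3775 lower calls, and the median log2 fold change was -0.358 over the members, -0.205 over ADAM and -0.228 over ADAMTS genes. With no filter the median was -0.326 over the members, -0.718 over MMP and -0.288 over ADAMTS genes. With the stricter filter of 50 the ADAMTS median was -0.036, the TIMP median -0.963, and 0 TIMP genes were higher, since Timp4 was no longer tested. With FPKM rescaled to a common sum, the log2 ratio of summed FPKM was 0.041 for ADAM and 1.195 for ADAMTS genes, against 0.136 and 1.291 as deposited. With the most abundant member of a family left out of the sum, an alternative chosen after seeing the data, this ratio was -0.286 for ADAMTS without Adamts8, -0.26 for ADAM without Adam19 and -1.441 for TIMP without Timp1, and MMP and ADAMTSL kept their direction.

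Leaving out 1 library gave 1665 to 3398 higher and 1636 to 3061 lower calls over all genes, and the lowest counts came from leaving out an ATRA library. Over the same fits the median log2 fold change of the members ran between -0.385 and -0.137, that of ADAM genes between -0.161 and -0.075, that of ADAMTS genes between -0.214 and -0.022 and that of TIMP genes between -0.992 and -0.29. Lower calls ran over 3 to 7 for MMP and 1 to 2 for TIMP genes, and higher TIMP calls over 0 to 1. Sign changes of the log2 fold change concerned 7 genes. Adam10 had -0.104 with library size alone, -0.02 with upper-quartile scaling, -0.002 with edgeR with TMM factors, -0.001 with DESeq2 and -0.014 to 0.041 on leaving out 1 library. Adam1a had -0.169 to 0.008 on leaving out 1 library. Adam33 had -0.059 with library size alone and -0.09 to 0.152 on leaving out 1 library. Adamts10 had -0.14 to 0.047 on leaving out 1 library. Adamts13 had -0.073 with library size alone and -0.028 to 0.081 on leaving out 1 library. Adamts9 had -0.009 with library size alone. Mmp23 had -0.394 to 0.023 on leaving out 1 library. These genes were not called, and the cause of the changes was not tested.

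The replicate numbers gave no sign of pairing: the correlations of same-numbered deviations were 0, -0.103 and -0.013. Those of differently numbered libraries were -0.051 to 0.076. These values cannot show whether same-numbered libraries shared a cell isolation. With the replicate number as a block, 8 members were higher and 18 lower, with Mmp28 the one call lost. Counts of a few reads limit Timp4, Adam8, Adam11 and Adam22, and the same depth leaves the 29 untested members without a comparison.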
